A study of Homo sapiens with 6 samples.

Results

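The genes described here were the antisense long non-coding RNA (lncRNA) genes, taken as every lncRNA gene of the counts matrix whose symbol ends in -AS and a digit. They numbered 1812 of 60664 genes. RNA was measured in U-2 OS, a human osteosarcoma cell line, by polyA RNA-seq. The 3 siControl libraries came from cells given a control siRNA and the 3 siSFPQ libraries from cells given siRNA against SFPQ, transfected at 30 nM. The libraries held 43469321 to 47119203 counts. All 6 came from the same polyploid line, and the study describes the replicates as biological. Whether they were separate cultures is not stated in the labels, so p-values measure the spread between these libraries.

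An antisense lncRNA gene is named after the gene that it lies opposite to, called its sense partner here. Such transcripts are mostly rare and nuclear. Some start beside the promoter of the partner and run away from it, some cross its 3′ end, and some lie within its introns. SFPQ is an abundant nuclear RNA-binding protein of the paraspeckle that acts in splicing and in the transcription of long genes.

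SFPQ mRNA had 22338, 23139 and 21753 counts in siControl and 3140, 3863 and 3151 in siSFPQ libraries. The conditions did not overlap, and the log2 fold change was -2.73 ± 0.05 (SE; adjusted p = 6.34e-30 in edgeR). The osteosarcoma markers RUNX2, COL1A1, SPARC and VIM were detected at 56.4, 2846, 2173 and 904 CPM (counts scaled to the library total) in siControl libraries, whereas COL1A2 was at 0.813 CPM and SP7 and BGLAP were near 0. Of blood markers, CD3E was near 0 and PTPRC at 0.678 CPM with a log2 fold change of -1.61 (edgeR adjusted p = 0.00147). The osteosarcoma marker SPP1 was at 17.9 CPM in siControl libraries, with a log2 fold change of -1.33. The epithelial markers EPCAM (4.98 CPM), KRT14 (14.8 CPM), CDH1 (1.08 CPM) and KRT5 (1.11 CPM) were detected in siControl libraries. Their log2 fold changes differed in direction: -0.18 for EPCAM, -1.82 for KRT14, 0.76 for CDH1 and 0.59 for KRT5. The endothelial markers PECAM1 (0.757 CPM, log2 fold change 0.25) and CDH5 (0.250 CPM, log2 fold change 1.39) were also detected. The part of these markers in the results was not tested. In bulk libraries, a change in every cell and a change in the share of cells that express a gene cannot be told apart.

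Counts of these genes have to be read with their overlaps. Of 794 genes with every exon base inside exons of the other strand, 27 (3.40%) had any count, against 62.5% of the 41038 genes with no such base. All 33 antisense genes covered in this way had 0 counts. The libraries were made with a stranded kit, but these are the values of a count that ignored strand and left out reads shared by overlapping genes. An antisense gene's count is therefore the reads of either strand over its unshared exon bases, and where such a base lies in an intron of another gene, reads of that gene's unspliced RNA cannot be told apart from antisense RNA. Of the 1105 antisense genes that were tested, 798 shared exon bases with another gene and 441 had no exon base outside the span of every other gene. A set of 240 tested genes with at least 90% of their countable exon bases outside all other genes is called clear below.

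The DNA before the start site is shown for the antisense gene with the largest rise at a mean of at least 1 CPM (BCAR3-AS1), for the opposite pair at that level that moved furthest apart (TSHZ3-AS1 and TSHZ3) and, chosen after its values were seen, for a head to head pair of which the antisense gene fell and the partner had no call (CCNT2-AS1). Sequences are from RefSeq on GRCh38.p14, whose table matched 1271 antisense genes by symbol and which gave none for PYDC2-AS1, the gene with the largest fall at that level. Windows of the antisense genes run from 250 bases before to 50 bases after the RefSeq start site, and that of TSHZ3 holds the 250 bases before it. Each CG dinucleotide, which reads the same on both strands, is in capitals.
BCAR3-AS1, chr1:93591718-93592017, plus strand: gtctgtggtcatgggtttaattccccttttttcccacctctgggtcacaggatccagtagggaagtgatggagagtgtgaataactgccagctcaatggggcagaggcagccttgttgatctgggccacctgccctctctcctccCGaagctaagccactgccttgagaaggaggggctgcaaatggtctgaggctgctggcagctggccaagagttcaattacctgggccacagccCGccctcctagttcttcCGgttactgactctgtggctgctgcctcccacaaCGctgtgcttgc
TSHZ3-AS1, chr19:31351168-31351467, plus strand: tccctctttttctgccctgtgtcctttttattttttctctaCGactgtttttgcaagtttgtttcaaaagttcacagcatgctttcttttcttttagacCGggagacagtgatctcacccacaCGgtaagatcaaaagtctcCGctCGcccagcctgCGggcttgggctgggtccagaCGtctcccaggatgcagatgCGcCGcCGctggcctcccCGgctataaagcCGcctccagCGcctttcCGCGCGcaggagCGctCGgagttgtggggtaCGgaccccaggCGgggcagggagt
TSHZ3, chr19:31349437-31349686, minus strand: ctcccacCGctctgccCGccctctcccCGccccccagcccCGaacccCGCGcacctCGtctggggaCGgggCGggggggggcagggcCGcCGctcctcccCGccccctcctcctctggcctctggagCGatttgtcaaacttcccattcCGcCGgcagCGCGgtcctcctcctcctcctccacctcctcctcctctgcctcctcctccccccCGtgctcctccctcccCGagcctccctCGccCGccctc
CCNT2-AS1, chr2:134918557-134918856, minus strand: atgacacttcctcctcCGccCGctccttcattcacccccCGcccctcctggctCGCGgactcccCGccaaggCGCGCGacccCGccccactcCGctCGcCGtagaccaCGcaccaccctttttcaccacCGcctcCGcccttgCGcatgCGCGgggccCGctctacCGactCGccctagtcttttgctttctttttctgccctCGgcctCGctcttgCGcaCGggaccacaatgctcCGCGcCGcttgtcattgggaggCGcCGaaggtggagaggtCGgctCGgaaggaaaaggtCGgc
The BCAR3-AS1 window held 4 CG, and 75.5% of the 35114 windows in the table held at least as many. The TSHZ3-AS1 window held 20 (41.2% of windows held at least as many), TSHZ3 held 21 in its shorter window (30.2%), and CCNT2-AS1 held 34 (15.6%). The window of CCNT2, on the plus strand, shares 285 bases with that of CCNT2-AS1, so the sequence shown last covers most of the RefSeq window of both genes. This holds for the RefSeq starts only, which lie 106 bases inside the GENCODE 44 model of CCNT2-AS1 and 587 bases inside that of CCNT2. The RefSeq start of TSHZ3-AS1 lies 2537 bases inside its model, whereas the start of BCAR3-AS1 differs by 2 bases.

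Depletion of SFPQ changed antisense genes in both directions. Among the 1105 tested, 206 (18.6%) were called higher and 142 (12.9%) lower by the edgeR quasi-likelihood test, with a threshold of 0.05 on p-values adjusted over 29022 genes (Benjamini-Hochberg). Over all genes tested, 22.4% rose and 22.1% fell, and over the 6085 other lncRNA genes 16.9% rose and 12.1% fell. When a log2 fold change beyond 1.5 was also required, 77 antisense genes (6.97%) were higher and 37 (3.35%) lower, against 5.54% and 4.77% of all genes and 9.33% and 5.95% of other lncRNA genes. These shares lie nearer to those of other lncRNA genes than to those of all genes for calls by adjusted p. The conditions did not overlap in 258 antisense genes that were higher (23.3%) and 181 that were lower (16.4%), against 26.9% and 25.4% of all genes. The median log2 fold change was 0.12 for antisense genes, 0.13 for other lncRNA genes and 0.02 for all genes. The remaining 707 antisense genes had under 10 counts over the 6 libraries and were not tested.

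Antisense genes took 0.295% to 0.300% of all counts in siControl libraries and 0.303% to 0.310% in siSFPQ libraries, so their summed level barely moved. Most were rare, with a median of 0.43 CPM among those tested. Among the 367 with a mean of at least 1 CPM, 98 (26.7%) rose and 92 (25.1%) fell, while 30.2% and 34.4% of all genes at that level did. This mean is over all 6 libraries. A gene can therefore reach it through siSFPQ or siControl libraries alone, as BCAR3-AS1 and PYDC2-AS1 below did. In the clear set, 40 rose (16.7%, against 22.4% of all genes) and 45 fell (18.8%, against 22.1%), with a median log2 fold change of -0.00. Past both thresholds, 6 were higher (2.5%, against 5.54%) and 7 lower (2.92%, against 4.77%). A gene wholly within its partner cannot be in the clear set, since all of its bases lie in another gene's span. The set therefore cannot tell whether the surplus of rises over falls goes with shared or intronic reads. Among the 307 tested antisense genes with no exon base shared with another gene, 75 (24.4%) rose and 35 (11.4%) fell, against 22.4% and 22.1% of all genes.

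The most abundant antisense genes changed little. FGD5-AS1, at 296 CPM, had 13764, 14266 and 14179 counts in siControl and 12447, 13494 and 13185 in siSFPQ libraries, a log2 fold change of -0.11 ± 0.04 (adjusted p = 0.00843). Its call was lost without siSFPQ 1 (-0.09) and with library size alone (-0.05). OIP5-AS1, a conserved transcript also known as Cyrano, fell by 0.22 on the log2 scale (adjusted p = 2.02e-05), with 0.2% of its countable exon bases clear of other genes. MAGI2-AS3 rose by 0.27 (adjusted p = 2.26e-06) and is 99.2% clear. PSMA3-AS1 (0.27) and GAS6-AS1 (0.18) rose, and neither has a clear base. NECTIN3-AS1, at 80.4 CPM, was called lower at -0.10 ± 0.04 (adjusted p = 0.0451), a call lost without any of siControl 2, siControl 3, siSFPQ 1 or siSFPQ 2 (-0.10 to -0.09), in DESeq2 (-0.10) and with library size alone (-0.04).

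By contrast, some less abundant antisense genes showed large changes, and those named next had the largest at a mean of at least 1 CPM. Most rare genes had no call. Of the 738 tested under 1 CPM, 78.6% had none. Past both thresholds, 9.08% of them were higher and 4.47% lower, against 5.54% and 4.77% of all genes. BCAR3-AS1 had 0, 8 and 3 counts in siControl libraries and 129, 114 and 113 in siSFPQ libraries. The groups were far apart, and the log2 fold change was 4.97 ± 0.37 (adjusted p = 2e-13), about 31.3-fold. Without siControl 2 the log2 fold change was 6.19. It lies at chromosome 1, 93591966 to 93610605 (GENCODE 44, GRCh38), wholly inside the 285 kb span of BCAR3, an adaptor protein of integrin signalling. BCAR3 itself had 1618, 1628 and 1481 counts in siControl and 2563, 2550 and 2584 in siSFPQ, and rose by 0.70 ± 0.05. No exon base of BCAR3-AS1 lies outside other genes.

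**Figure D1:**
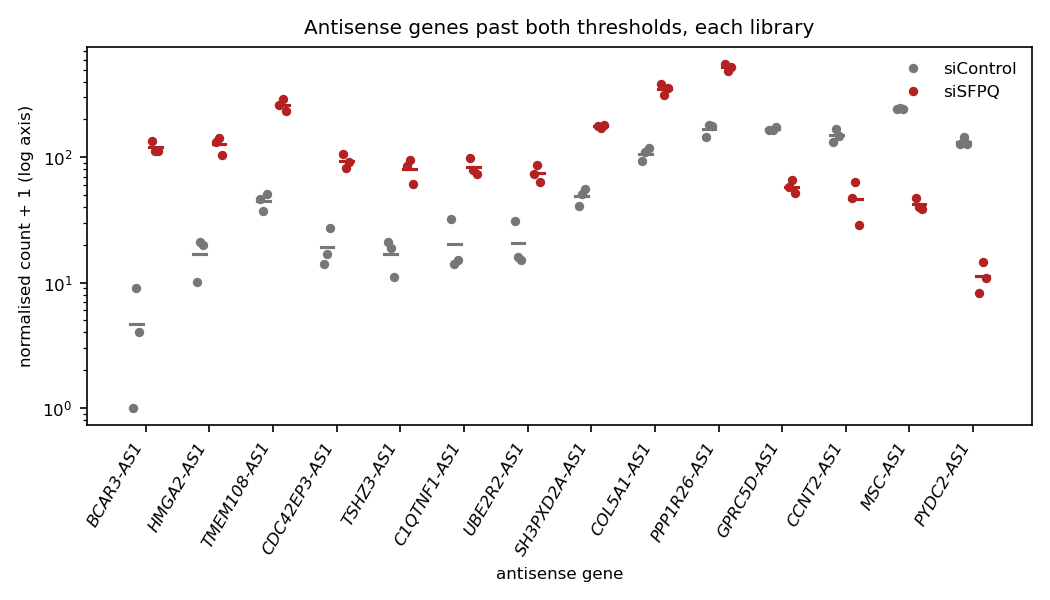
Normalised counts plus 1 (log axis) of the 14 antisense genes with a mean of at least 1 CPM that passed both thresholds without overlap of the conditions. Points are libraries and bars are means of 3. The mean of 1 CPM is over all 6 libraries, so some rises reach it only through their siSFPQ libraries. The 10 genes on the left were higher in every siSFPQ library than in any siControl library, from BCAR3-AS1 (4.97 on the log2 scale) to PPP1R26-AS1 (1.64), and the 4 on the right were lower, down to PYDC2-AS1 (-3.67).

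HMGA2-AS1 lies within HMGA2, which encodes an architectural chromatin protein. It had 9, 20 and 19 counts in siControl and 128, 145 and 105 in siSFPQ libraries, a log2 fold change of 2.96 ± 0.25 (adjusted p = 7.46e-12). TMEM108-AS1 had 45, 36 and 50 against 253, 296 and 235 counts (2.57 ± 0.16), while its partner TMEM108 had at most 5 counts in any library. Those counts cover only the unshared exon bases of TMEM108, so they leave out reads of its introns. CDC42EP3-AS1 rose by 2.32 ± 0.26 with 13, 16 and 26 against 102, 83 and 92 counts. Its partner, an effector of the GTPase CDC42, had no call (-0.03 ± 0.04). SH3PXD2A-AS1, inside the gene of an invadopodium scaffold, rose by 1.85 ± 0.17, and C1QTNF1-AS1 by 2.08 ± 0.28. PPP1R26-AS1, head to head with a regulatory subunit gene of protein phosphatase 1, had 144, 181 and 175 against 534, 498 and 534 counts (1.64 ± 0.11). It is 88.9% clear, and PPP1R26 rose by 0.22 ± 0.05.

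Falls of this size were fewer. PYDC2-AS1 (chromosome 3, 191425493 to 191591097, plus strand) had 127, 143 and 126 counts in siControl and 7, 14 and 10 in siSFPQ libraries. The log2 fold change was -3.67 ± 0.26 (adjusted p = 4.47e-14), and every exon base is clear of other genes. Although it is named as antisense, it lies on the same strand as PYDC2, a pyrin domain gene that had at most 1 count in any library. MSC-AS1, whose span contains MSC, the gene of the repressor musculin, had 239, 246 and 240 against 45, 40 and 38 counts (-2.56 ± 0.16). GPRC5D-AS1 had 163, 164 and 172 against 55, 66 and 51 counts (-1.54 ± 0.16), and its partner, an orphan receptor, had no call at -0.35 ± 0.22.

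CCNT2-AS1 fell while its head to head partner had no call. It had 130, 167 and 147 counts in siControl and 45, 64 and 28 in siSFPQ libraries, a log2 fold change of -1.70 ± 0.21 (adjusted p = 1.71e-08). CCNT2, which encodes a cyclin of the elongation factor P-TEFb, had 3259, 3664 and 3425 against 3256, 3276 and 3180 counts. Its difference of -0.10 ± 0.05 had no call (adjusted p = 0.0863). It was called without siControl 1 (-0.13), with no filter on low counts (-0.11) and with a replicate block (-0.09). The difference between the changes of the antisense gene and the partner was -1.60 ± 0.21. Of the countable bases of CCNT2-AS1, 22.7% are clear of other genes.

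Among genes under 1 CPM, some were at 0 in siControl libraries. EPN2-AS1, inside the gene of the endocytic adaptor epsin 2 and named here after its values were seen, had 0 counts in every siControl library and 44, 56 and 37 in siSFPQ libraries, at least 15.2-fold higher against a floor of 3 counts per library. EPN2 had no call (-0.05 ± 0.07). CSNK1G2-AS1, also chosen in that way, had 5, 9 and 8 against 90, 73 and 79 counts (3.44 ± 0.31). CSNK1G2, a casein kinase gene, had no call except with no filter on low counts (-0.10) and with a replicate block (-0.09). Both antisense genes lie wholly within their partners and have no clear base. MTUS2-AS2 fell, with 43, 65 and 57 against 1, 16 and 2 counts (-3.10 ± 0.46, and -5.09 without siSFPQ 2), as did LMCD1-AS1 with 81, 59 and 76 against 15, 17 and 20 (-2.05 ± 0.27). Their partners MTUS2 (-0.79) and LMCD1 (-2.04) were also lower. These last genes were likewise chosen after their values were seen.

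A sense partner was found for 1795 antisense genes, and 1059 tested pairs could be set side by side. Of the 1021 different partners, 262 (25.7%) rose and 417 (40.8%) fell, against 28.0% and 30.9% of all protein-coding genes. Both members were called in 239 pairs. They moved the same way in 133 pairs (64 up, 69 down) and opposite ways in 106. In 79 of the opposite pairs the antisense gene rose and the partner fell, and in 27 the reverse held. Partners also fell more often than they rose where the antisense gene had no call (292 against 181), so this split is not particular to the opposite pairs. Without siSFPQ 1, 88 pairs moved the same way and 66 opposite ways. Across pairs, the changes of antisense gene and partner had a Spearman correlation of 0.15 and a Pearson correlation of 0.11 (n = 1059 pairs, which share libraries and in part a partner, and of which overlapping members share the rule for shared reads). The ratio of antisense to partner counts was higher in every siSFPQ than in any siControl library in 306 of the 1059 pairs and lower in 138. Single genes were higher without overlap in 26.9% of all genes and lower in 25.4%, and ratios have no such background here. The ratio also carries the partner's own change, and 417 partners fell while 262 rose.

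In the opposite pair with the largest difference at 1 CPM or more, TSHZ3-AS1 had 20, 18 and 10 counts in siControl and 81, 96 and 61 in siSFPQ libraries (2.30 ± 0.28; adjusted p = 2.8e-08). TSHZ3, a zinc finger transcription factor gene that starts 0.56 kb away on the other strand, had 2148, 2317 and 2074 against 179, 247 and 204 counts (-3.38 ± 0.08). Neither member's conditions overlapped. The difference was 5.68 ± 0.29 on the log2 scale, and 93.4% of the countable bases of TSHZ3-AS1 are clear. NHSL1-AS1 and NHSL1, a gene of cell migration, start 0.023 kb apart. The antisense gene, all of it clear, had 124, 94 and 103 against 162, 189 and 189 counts (0.74 ± 0.14), and NHSL1 had 510, 554 and 516 against 83, 95 and 87 (-2.58 ± 0.11). In siSFPQ libraries the antisense gene thus had more counts than its partner, the reverse of siControl. ZMIZ1-AS1, which runs away from ZMIZ1 without overlap, had 115, 104 and 114 against 267, 249 and 243 counts (1.18 ± 0.13), while ZMIZ1, a transcriptional coactivator gene, fell by 1.81 on the log2 scale (SE 0.05). It is also wholly clear.

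COL5A1-AS1 lies in COL5A1, the gene of a type V collagen chain. It had 92, 108 and 116 counts in siControl and 372, 321 and 360 in siSFPQ libraries (1.73 ± 0.13), while COL5A1 fell from 30743, 33665 and 29760 to 5694, 6822 and 5789 (-2.37 ± 0.05). The difference of the changes was 4.10 ± 0.13. HMGA2 fell (-1.43 ± 0.05) as its antisense gene rose, and UBE2R2-AS1 rose by 1.89 ± 0.28 with UBE2R2, a ubiquitin-conjugating enzyme gene, at -1.13 ± 0.04. HMGA2-AS1 and COL5A1-AS1 have no clear base, and UBE2R2-AS1 is 46.8% clear.

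**Figure D2:**
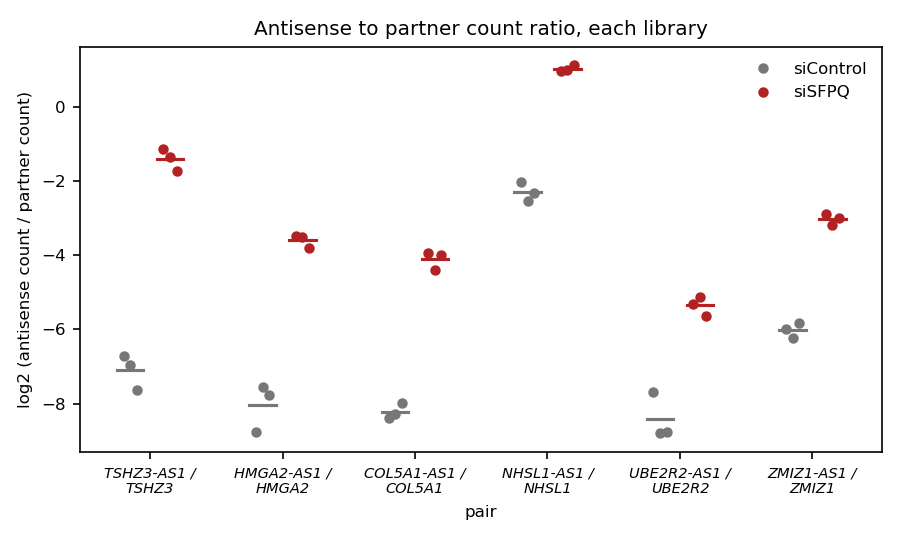
Log2 ratio of antisense to partner counts in each library for the 6 pairs, both with a mean of at least 1 CPM, that were called opposite ways and differed most. Bars are means of 3 libraries. Every siSFPQ library lies above every siControl library in each pair. Only for NHSL1-AS1 does the ratio cross 0, where both members have equal counts.

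Antisense genes within their partner mostly rose where they were called, and the other layouts were nearer to balance. Of 363 tested genes that lie wholly within their partner, 95 (26.2%) rose and 27 (7.44%) fell, against 22.4% and 22.1% of all genes. Past both thresholds, 57 of them (15.7%) were higher and 11 (3.03%) lower, against 5.54% and 4.77% of all genes. By adjusted p alone, the share of rises was thus near that of all genes, and the share of falls was lower. Past both thresholds, the share of rises was above that of all genes. Their median log2 fold change was 0.40, while the median of their partners was -0.10. Their summed level was 304, 297 and 309 CPM in siControl and 412, 397 and 394 CPM in siSFPQ libraries, without overlap. Of 418 genes that overlap their partner head to head, 64 (15.3%) rose and 60 (14.4%) fell with a median of 0.02. Of 183 that overlap it tail to tail, 21 (11.5%) rose and 33 (18.0%) fell with a median of -0.04. The 73 genes that contain their partner (12 higher, 11 lower) and the 44 that run away from it without overlap (7 higher, 8 lower) were also balanced. Among genes with a mean of at least 1 CPM, 26 of the 67 within their partner rose (38.8%) and 11 fell (16.4%). Of all genes at that level, 30.2% rose and 34.4% fell.

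**Figure D3:**
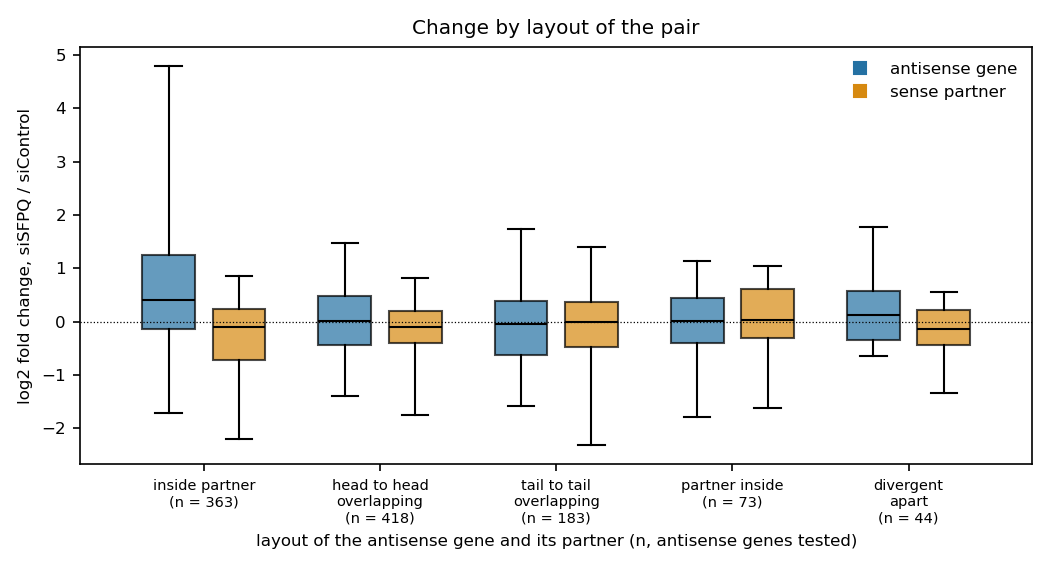
Log2 fold change (siSFPQ against siControl) of antisense genes (blue) and their sense partners (orange) by layout of the pair. Boxes are quartiles with the median, and whiskers run from the 5th to the 95th percentile. The box of antisense genes within their partner (median 0.40) lies highest, and the other antisense boxes have medians from -0.04 to 0.12.

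Other genes that lie within protein-coding genes also rose more often than they fell. Of 1173 other lncRNA genes inside a protein-coding gene of the other strand, 21.4% rose and 5.29% fell (median 0.34). Of 549 inside a protein-coding gene of their own strand, 25.3% rose and 8.56% fell (median 0.33). Of 1204 processed pseudogenes inside a protein-coding gene, 15.1% rose and 4.65% fell (median 0.15). Outside protein-coding genes, 14.7% of 4320 other lncRNA genes rose and 14.5% fell (median 0.03), and 4.77% of 1614 processed pseudogenes rose and 6.75% fell (median -0.01). Past both thresholds, 15.7% of the other lncRNA genes inside a gene of the other strand were higher. That share was 19.3% inside a gene of their own strand and 6.37% outside protein-coding genes. For processed pseudogenes it was 11.5% inside and 2.97% outside. The part of unspliced host RNA in the rise was not tested.

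Within the partner, rises outnumbered falls at every position, while 22.4% of all genes rose and 22.1% fell. In the first 25% of the partner's span, 14 of 72 antisense genes rose and 3 fell, and in the last 25% 28 of 109 rose and 12 fell. Of those that start over 100 kb from the partner's start, 36 of 116 rose (31.0%) and 16 fell (13.8%). Within 10 kb, 9 of 59 rose (15.3%) and 4 fell (6.78%). Rises also outnumbered falls whichever way the partner moved. Where the partner fell, 44 of 164 rose and 18 fell (median 0.32). Where the partner rose, 26 of 88 rose (29.5%) and 2 fell (2.27%), with a median of 0.61. Where it had no call, 25 of 111 rose (22.5%) and 7 fell (6.31%), with a median of 0.24.

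The median change of sense partners fell with their span, and that of antisense genes did not follow it. With each protein-coding partner counted once, those under 50 kb had a median log2 fold change of 0.05 and those of 50 to 100 kb -0.02. Those of 100 to 200 kb had -0.25 and those over 200 kb -0.83. All protein-coding genes had medians of 0.07, -0.02, -0.18 and -0.79 in the same classes. The antisense genes of those partners had medians of 0.10, 0.05, 0.25 and 0.13. Over 1059 pairs, the Spearman correlation of partner span with the partner's change was -0.38 and with the antisense gene's change 0.02. By layout, the latter was 0.03 for genes within their partner, -0.12 for head to head pairs with overlap and -0.12 for tail to tail pairs with overlap. For clear genes it was -0.09. Opposite partners over 200 kb, 51 of 196 antisense genes rose (26.0%, against 22.4% of all genes) and 37 fell (18.9%, against 22.1%). The antisense to partner ratio was higher without overlap in 98 and lower in 16. This ratio carries the partner's own change, and 68.1% of all protein-coding genes over 200 kb were lower. The 20 clear genes of this class had a median of -0.12, with their partners at -1.15.

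**Figure D4:**
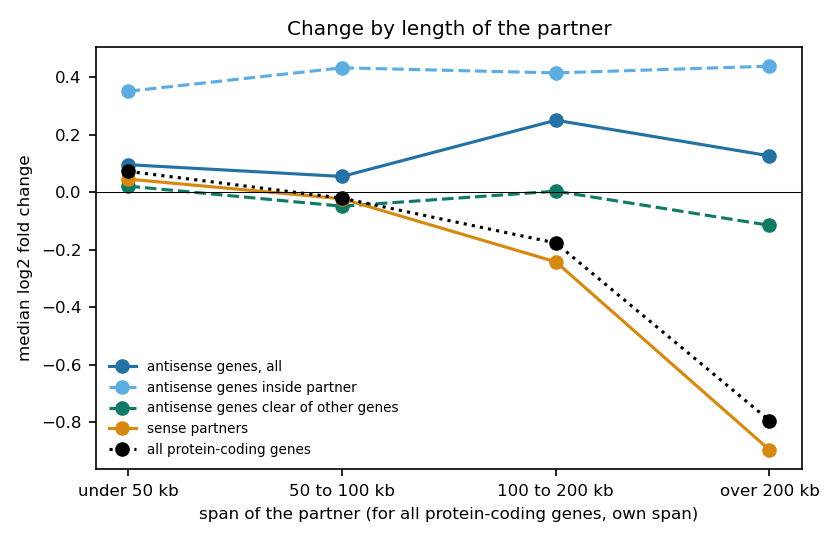
Median log2 fold change of antisense genes (all, within the partner, and clear of other genes), of their sense partners and of all protein-coding genes, by span of the partner or of the protein-coding gene itself. Partners and protein-coding genes fall to -0.90 and -0.79 over 200 kb, while antisense genes stay between -0.12 and 0.44 there. A partner is drawn once for each of its antisense genes here. Counted once each, partners over 200 kb had a median of -0.83.

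Antisense genes of the longest partners show this spread. DPP10-AS1 lies within the 1403 kb of DPP10, a gene of a potassium channel subunit, and had 62, 51 and 46 counts in siControl and 58, 79 and 61 in siSFPQ libraries (0.31 ± 0.22, no call). DPP10 fell from 414, 434 and 420 to 36, 30 and 18 counts (-3.91 ± 0.16). DLGAP1-AS2 (0.37 ± 0.08) and DLGAP1-AS1 (0.61 ± 0.07) rose inside DLGAP1, a postsynaptic scaffold gene of 959 kb that fell (-2.20 ± 0.29). MAGI2-AS3 rose beside MAGI2, which had no call (0.00 ± 0.11). ZFPM2-AS1 had 488, 429 and 443 against 191, 219 and 181 counts (-1.21 ± 0.10) and fell along with ZFPM2, a cofactor of GATA factors (-2.01 ± 0.10). ZFHX3-AS1 fell (-0.79 ± 0.10), while the homeobox gene ZFHX3 was called higher (0.24 ± 0.06), a call lost without siSFPQ 2 (0.17) and in DESeq2 (0.24).

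Grouped by the partner, the 10 antisense genes of the HOX clusters, which encode regulators of body patterning, were all tested. Of these, 5 (50%) were called higher, against 22.4% of all genes, and the other 5 had no call. The calls of 3 of them were lost when some single libraries were left out, and 1 uncalled gene was lower in every siSFPQ library than in any siControl library. HOXA-AS2 had 31, 36 and 49 against 79, 69 and 76 counts (0.94 ± 0.23), and HOXB-AS4 had 194, 237 and 229 against 288, 303 and 314 (0.45 ± 0.11). HOXB-AS2 (1.28 ± 0.39) and HOXB-AS3 (0.40 ± 0.11) lost the call without siSFPQ 2 (1.05 and 0.30). HOXC-AS2 (0.44 ± 0.16) lost it without any of siControl 1, siControl 3, siSFPQ 1 or siSFPQ 2 (0.39 to 0.43) and in DESeq2 (0.44). HOXB-AS1 (0.22 ± 0.24) and HOXC-AS1 (0.13 ± 0.19) had no call.

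Opposite adhesion, guidance and channel genes, 17 of 74 tested antisense genes rose (23.0%, against 22.4% of all genes) and 11 fell (14.9%, against 22.1%), with a median of 0.05, and the median of the partners was -0.32. SEMA3B-AS1 rose (0.76 ± 0.15) with the semaphorin gene SEMA3B (1.08 ± 0.05), from which it starts 0.006 kb away. EPHA5-AS1 rose (0.94 ± 0.26) as the ephrin receptor gene EPHA5 fell (-0.76). ITGA9-AS1 had 278, 317 and 260 against 96, 125 and 102 counts (-1.41 ± 0.13). Its partner, an integrin gene, was lower at -1.33, a call lost without siSFPQ 1 (-0.93) or siSFPQ 2 (-1.18), while it was -2.14 without siSFPQ 3.

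Opposite developmental transcription factor genes, 6 of 24 rose (25%, against 22.4% of all genes) and 4 fell (16.7%, against 22.1%), with a median of 0.17. MEIS1-AS3, wholly clear, had 204, 211 and 172 against 335, 256 and 343 counts (0.67 ± 0.12), while the homeobox gene MEIS1 fell (-1.55). GATA2-AS1 had 1, 3 and 3 against 27, 25 and 20 counts (3.29 ± 0.58) and GATA2 rose (1.34). NR2F1-AS1 fell (-0.59 ± 0.13) along with the nuclear receptor gene NR2F1 (-1.37). ZEB1-AS1 was called lower (-0.23 ± 0.09) with ZEB1, a regulator of epithelial identity (-0.59), but the call was lost without siControl 3 (-0.15), siSFPQ 1 (-0.20) or siSFPQ 3 (-0.24), in DESeq2 (-0.23) and with library size alone (-0.17).

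For cell cycle and repair partners, 2 of 19 antisense genes rose (10.5%, against 22.4% of all genes) and 4 fell (21.1%, against 22.1%), with a median of -0.24. CDK6-AS1 had 21, 47 and 25 against 6, 5 and 4 counts (-2.61 ± 0.48), and the kinase gene CDK6 fell (-0.80 ± 0.04). DDX11-AS1, wholly clear, rose (0.57 ± 0.12) with the helicase gene DDX11 (0.32), and KIF23-AS1 rose (0.76 ± 0.18) as the kinesin gene KIF23 fell (-0.19). TMPO-AS1 (-0.34 ± 0.16, called without siControl 3 at -0.46) and MCM3AP-AS1 (-0.04 ± 0.09) had no call. MCM3AP was called higher (0.16), a call lost without siControl 3 (0.10) or siSFPQ 2 (0.13).

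Opposite immune and interferon genes, 7 of 19 rose (36.8%, against 22.4% of all genes) and 2 fell (10.5%, against 22.1%), with a median of 0.20, and the partners had a median of 0.40. IRF1-AS1 had 18, 26 and 37 against 86, 55 and 64 counts (1.34 ± 0.27), with IRF1, an interferon-induced transcription factor gene, higher at 0.99 ± 0.09. Since 3.0% of the countable bases of IRF1-AS1 are clear, its own RNA is not separated from that of its neighbours by these counts. TRAF3IP2-AS1 fell (-1.06 ± 0.16) while TRAF3IP2, an adaptor of interleukin-17 signalling, rose (0.45). CD44-AS1 rose (2.55 ± 0.56, and 3.42 without siControl 1) inside CD44, an adhesion receptor gene (0.43). CD27-AS1 was higher (0.38 ± 0.10), a call lost without siSFPQ 2 (0.29).

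Other antisense genes known from the literature moved moderately. VIM-AS1, 98.8% clear, had 185, 228 and 244 against 358, 391 and 339 counts (0.72 ± 0.11) and VIM, the vimentin gene, rose (0.32 ± 0.03). NNT-AS1, 97.6% clear, fell (-0.61 ± 0.07) with NNT, a mitochondrial transhydrogenase gene (-0.41 ± 0.04). SBF2-AS1 fell (-0.57 ± 0.16) with SBF2 (-1.53), and 2.7% of its bases are clear. GAS6-AS1 rose while GAS6, a ligand of TAM receptor kinases, fell (-1.12 ± 0.04). PXN-AS1 was called lower (-0.51 ± 0.18) and the focal adhesion gene PXN rose (0.86), but the antisense call was lost without siControl 1 (-0.42), siSFPQ 2 (-0.50) or siSFPQ 3 (-0.41) and in DESeq2 (-0.52). C1QTNF1, partner of C1QTNF1-AS1 above, was lower at -0.67, a call lost without siSFPQ 1 (-0.55).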

How the data were processed

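Total RNA of U-2 OS cells was sequenced from TruSeq libraries with paired reads. Per the labels and methods, the authors checked reads with FastQC, quantified genes with STAR 2.7.9a on the Ensembl GRCh38 genome and annotation, and tested them with DESeq2. The deposited values are raw counts per Ensembl gene. The strand setting of the counting is not given in the sources used here, and strand was settled from genes covered by exons of the other strand. Gene classes, spans, strands and exons came from GENCODE 44, which matched 60463 of 60664 genes (99.67%) and may not be the release the authors counted on. Antisense genes were lncRNA genes with a symbol ending in -AS and a digit. The members and the gene lists were chosen with earlier results of these data known.

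The sense partner was the gene whose symbol precedes -AS (1790 genes), or its current symbol for 5 older ones. For 17 genes none was found, and 1 pair over 200 kb apart was left out. Genes with at least 10 counts in total were tested in edgeR 4.0.16 (R 4.3.3) with TMM factors and the quasi-likelihood test, siSFPQ against siControl, 3 against 3. Genes were called at an adjusted p under 0.05, and past both thresholds also beyond 1.5 on the log2 scale, a 2.83-fold change. SE is the log2 fold change divided by the square root of F. For a difference between the changes of a pair, SE is the root of the summed squares of both SEs. This takes both genes as independent, although they were measured in the same libraries. Normalised counts are counts divided by the effective library size, times the geometric mean of those sizes. Ratios used 0.5 added to each count. The script recovered changes in simulated counts. A count of 3 is 0.0637 to 0.0690 CPM in these libraries. Intervals from libraries cover the spread between them only.

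Genes named were up to 10 rises and 10 falls that passed both thresholds at 1 CPM or more without overlap of the conditions; the 6 with the highest level; the 5 with the longest partner at 1 CPM or more; those of a fixed literature list at 1 CPM or more; and the 6 most different opposite pairs. Others are stated as chosen after their values were seen, or are examples from the partner groups, which were drawn up by gene symbol and whose examples were also picked after their values were seen. Alternatives were other filters, scalings, DESeq2 1.42.0, a replicate block, each library left out, and subsets by overlap and level.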

Additional observations from a re-analysis of the deposited data

How the results depend on the processing

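Of 111 log2 fold changes of named antisense genes and partners, none changed sign in a called state over 12 refits. The call, or its absence, held in 1278 of 1324 refits, a call was lost in 39 and gained in 7. The filter of filterByExpr left 46 antisense genes higher and 17 lower past both thresholds, with partners at a median of -0.0682, fewer genes being tested. With no filter on low counts, the medians were 0.170 for antisense genes and -0.1015 for partners, and the correlation of partner span with antisense change was 0.055. With library size alone the medians were 0.186 and -0.015. Past a log2 change of 1, 60 were lower. Among antisense genes with no exon base shared with another gene, 75 rose and 35 fell (median 0.328), 35 pairs moved the same way and 48 opposite ways, and the span correlation was 0.076. At a mean of at least 1 CPM, 69 pairs moved the same way and 54 opposite ways (span correlation -0.023). In the clear set, chosen after seeing the data, 40 rose and 45 fell (median -0.00055), 6 and 7 passed both thresholds, 32 pairs moved the same way and 31 opposite ways, and the span correlation was -0.091. The cause of these shifts was not tested.

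Leaving out each library in turn gave 149 to 197 antisense genes higher, 103 to 131 lower, 61 to 99 and 25 to 41 past both thresholds, 230 to 251 partners higher, 353 to 392 lower, 88 to 126 pairs called the same way and 66 to 101 opposite ways. The medians ran from 0.090 to 0.144 for antisense genes and from -0.096 to -0.069 for partners, and the span correlation from -0.011 to 0.030.

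Replicate numbers did not pair the libraries: deviations from group means of same-numbered libraries correlated at -0.0251, 0.0697 and 0.0355. With the replicate block, 197 antisense genes rose and 133 fell, with a median of 0.158, and the block changed 2 calls of named results, CCNT2 (-0.09) and CSNK1G2 (-0.09), both then called lower. Most antisense genes are rare, so changes under 1 CPM carry the widest errors.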
